A study of Mus musculus with 8 samples.

Results

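Nes, Sox2, Prom1, Kit, Klf4, Myc, Lin28a, Lin28b and Bmi1 are 9 genes used as markers or regulators of stem and progenitor cells. They were chosen by name, with earlier results of these data known, out of 35458 genes with a symbol. All 9 are listed in every tumor's file. Their RNA was measured by total RNA sequencing in 8 subcutaneous tumors, each grown in a female A/J mouse after the injection of 1000000 cells of Neuro-2a (N2A), a neuroblastoma (NB) line of the mouse. Female mice were 4 weeks old when obtained, and treatment began once a tumor could be felt. The vehicle group received physiological solution and holds 4 tumors (vehicle 0 to vehicle 3). The other group received SR59230A, an adrenergic receptor antagonist, at 10 mg/kg into the peritoneum 2 times a day, and holds 4 tumors (SR59230A 1 to SR59230A 4). The labels name no altered allele in either group and the same cell line in all 8 tumors, and the whole tumor mass, with the N2A cells and the immune, vascular and other cells of an immunocompetent host, was read as 1 mixture. In such bulk samples fewer cells of a type and less RNA per cell cannot be told apart.

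Stem cell genes act at several levels. Sox2, Klf4 and Myc are transcription factors, and all belong to the set used to return differentiated cells to pluripotency. Lin28a and Lin28b are RNA-binding proteins that block the maturation of let-7 microRNAs, which otherwise silence growth genes as cells differentiate. Bmi1 is a subunit of Polycomb repressive complex 1 and keeps the Cdkn2a locus, which encodes cell cycle inhibitors, silent in self-renewing cells. Nes (nestin) is an intermediate filament of neural progenitors, Prom1 (CD133) a membrane glycoprotein used to sort stem-like tumor cells, and Kit the receptor for stem cell factor, needed by blood, germ, mast and pigment cell precursors. In NB, a tumor of the sympathetic lineage of the neural crest, several of these genes are followed as signs of an undifferentiated state. The comparison of SR59230A with vehicle asks whether their RNA differed in the tumor mass after treatment with the antagonist.

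The 9 genes fall on 6 chromosomes of GRCm38 in GENCODE release M21. Nes lies at chr3:87971078-87980451 and Sox2 at chr3:34650405-34652461, both on the plus strand. Kit lies at chr5:75574916-75656722 on the plus strand and Prom1 at chr5:43993620-44102032 on the minus strand. Klf4, at chr4:55527143-55532466, and Lin28a, at chr4:134003330-134018841, are on the minus strand, as is Lin28b at chr10:45376620-45486395. Myc, at chr15:61985391-61990374, and Bmi1, at chr2:18677018-18686629, are on the plus strand. The files give no coordinates, and transcript names such as Kit-201 are those of the same release.

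The let-7 microRNAs were not measured here, but their sequences show what Lin28a and Lin28b act on and why both genes are also read as let-7 targets. The 9 mature members from RefSeq (GRCm38.p6) shared 1 seed, bases 2 to 8 counted from the 5′ end, which is given in capitals.
let-7a: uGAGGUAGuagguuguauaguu
let-7b: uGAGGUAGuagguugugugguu
let-7c: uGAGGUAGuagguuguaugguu
let-7d: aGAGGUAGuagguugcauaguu
let-7e: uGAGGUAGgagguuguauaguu
let-7f: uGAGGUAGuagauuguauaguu
let-7g: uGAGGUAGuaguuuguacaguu
let-7i: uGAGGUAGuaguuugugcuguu
miR-98: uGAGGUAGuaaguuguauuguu

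The match to this seed, CTACCTC, was searched on the sense strand of the 3′ untranslated region (UTR) of the coding transcript that carried most reads of each stem gene. Lin28b held 4 matches in 4445 bases and Lin28a held 2 in 2775 bases, while the other 7 stem genes held none. Of 20055 protein-coding genes, 8.21% had at least 1 match in the 3′ UTR of their longest coding transcript and 11 genes (0.0548%) had 4 or more. Among genes with a 3′ UTR within 20% of the length of that of Lin28b, 24.2% had a match, and 14.2% did around the length of Lin28a. The windows below are from GENCODE M21 transcripts (GRCm38, minus strand), with the match in capitals.
Lin28a site 1, chr4:134005188-134005212: tgcacagcctgttgaaCTACCTCat
Lin28a site 2, chr4:134004550-134004574: tgagatcgccacaaacCTACCTCac
Lin28b site 1, chr10:45381021-45381045: cacccgggcgggaagtCTACCTCat
Lin28b site 2, chr10:45378647-45378671: atatacttgttagtaaCTACCTCtg
Lin28b site 3, chr10:45378475-45378499: tgtttacagcacatggCTACCTCcc
Lin28b site 4, chr10:45377059-45377083: gaaatgatggcaccgaCTACCTCtt

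Estimated reads per tumor totalled 23484190 to 44045575, and Noct took the most reads in each tumor (7.58% to 17.0%, highest in SR59230A 3). The labelled cell type was checked against its markers. Of 14 NB and sympathetic neuroblast genes 13 passed the filter on low counts, led by Chgb (1105 TPM ± 253, SD, n = 8) and Ret (207 TPM ± 53.5, SD, n = 8). Skeletal muscle genes stood apart. Their summed level was 1.11 to 1.88 TPM in the vehicle tumors and 2.37 to 614 TPM in the SR59230A tumors, highest in SR59230A 1.

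Results showed that 8 of the 9 stem genes were expressed and that 1, Sox2, was not detected above single reads. At least 10 reads in every tumor were found for those 8 genes, against 61.5% of all 21743 protein-coding genes, and at least 1 TPM in every tumor for 7, against 52.8%. TPM, a share of transcripts scaled to 1000000 per library, corrects for transcript length and was used to order the levels of genes. Bmi1 had the highest level, with 116 TPM ± 29.9 (SD, n = 8), followed by Myc with 89.4 TPM ± 21.8. Lin28a reached 33.6 TPM ± 12.7, Lin28b 18.6 TPM ± 3.18 and Nes 9.10 TPM ± 3.39. Klf4 and Prom1 lay close together, at 3.82 TPM ± 1.03 and 3.59 TPM ± 1.75, and Kit was at 0.430 TPM ± 0.255. Prom1 was among the 7 genes with at least 1 TPM in every tumor only with retained-intron models counted. Its coding models alone held 0.271 to 1.07 TPM per tumor. Bmi1 exceeded 96.2% of protein-coding genes in mean TPM, Myc 94.6%, Lin28a 83.5%, Lin28b 72.9%, Nes 61.2% and Kit 37.2%.

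**Figure D1:**
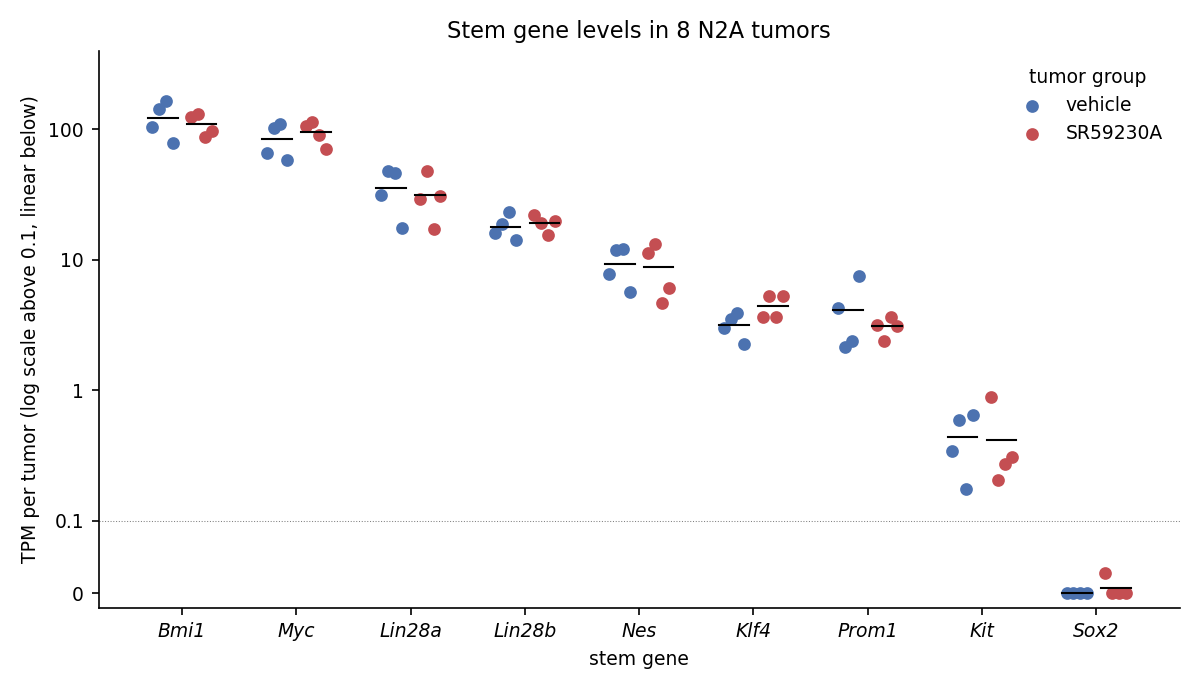
TPM of each stem gene in each of the 8 tumors (points, colored by group; black bars, group means), on an axis that is logarithmic above 0.1 TPM and linear below it. Bmi1 and Myc lie around 100 TPM, Kit stays under 1 TPM in all 8 tumors, and Sox2 is at 0 in 7 tumors with 1 read in SR59230A 1.

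The order of the levels was similar among tumors but not the same in all of them. Neighbors in it whose ranges over the 8 tumors did not overlap were Myc over Lin28a (lowest Myc 58.0 TPM, highest Lin28a 48.1 TPM), Lin28b over Nes (14.2 against 13.3 TPM), Prom1 over Kit (2.16 against 0.897 TPM) and Kit over Sox2. The gap of Prom1 over Kit rested on transcript models annotated as retained introns, and with coding models alone the ranges overlapped, at 0.271 to 1.07 TPM for Prom1 and 0.176 to 0.565 TPM for Kit, with Kit the higher in vehicle 0. The gap of Lin28b over Nes also rested on noncoding models of Lin28b. Coding models alone gave overlapping ranges, 9.27 to 18.9 TPM for Lin28b and 4.41 to 12.5 TPM for Nes. Lin28b was still the higher within every tumor. The ranges of Bmi1 and Myc overlapped, and Bmi1 was the higher in 7 of 8 tumors, the exception being SR59230A 3. Lin28a and Lin28b overlapped in range, yet Lin28a was the higher within 8 of 8 tumors, and the same held for Nes over Klf4. With all models counted, Klf4 and Prom1 could not be ordered, with Klf4 higher in 5 of 8 tumors. With coding models alone Klf4, at 2.28 to 5.30 TPM, lay above Prom1, at 0.271 to 1.07 TPM, without overlap. In vehicle 3 Prom1 with all models counted (7.54 TPM) was also above Nes (5.69 TPM).

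Among the transcription factors, Myc was abundant in all tumors. It was at 65.8, 102, 109 and 58.0 TPM in vehicle 0 to 3 and at 105, 114, 90.1 and 70.5 TPM in SR59230A 1 to 4. Both groups thus had tumors near 60 to 70 TPM and tumors above 100 TPM. Reads per tumor ran from 2649 to 5490. For the treatment comparison, reads were scaled to 1000000 per library, adjusted by the TMM method (CPM), which is not corrected for length. On that scale Myc was at 101, 107, 124 and 101 CPM in the vehicle tumors and at 118, 117, 135 and 116 CPM in the SR59230A tumors. Values of SR59230A 1, 2 and 4 lay within 3 CPM of each other, SR59230A 3 was above them, and vehicle 2 lay among the SR59230A values, so the groups overlapped. SR59230A minus vehicle came to 0.16 on the log2 scale (SE 0.10; edgeR quasi-likelihood test, adjusted p = 0.996). It was 0.10 without SR59230A 3 and 0.03 in the tumors numbered 1 and 2 alone.

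Klf4, a factor of pluripotency and of epithelial and myeloid differentiation, was low. It was at 2.99, 3.55, 3.93 and 2.28 TPM in vehicle 0 to 3 and at 3.66, 5.30, 3.65 and 5.24 TPM in SR59230A 1 to 4. Expressed as CPM it was at 5.71, 4.75, 5.52 and 5.05 in the vehicle tumors and at 5.40, 6.88, 7.45 and 11.3 in the SR59230A tumors. SR59230A 2, 3 and 4 were above all vehicle tumors, and SR59230A 1 lay inside the vehicle range. The mean was 7.76 CPM ± 2.53 with SR59230A and 5.26 CPM ± 0.435 with vehicle (SD, n = 4 each). Of the stem genes higher with SR59230A, Klf4 had the largest log2 fold change, 0.56 (SE 0.23), which did not pass the test over all genes (edgeR unadjusted p = 0.0391, adjusted p = 0.996). The exact two-sided permutation test gave p = 0.0857, where 0.0286 is the smallest value that 70 assignments allow. The difference depended on which SR59230A tumors were kept. It was 0.32 without SR59230A 4 and 0.84 (edgeR adjusted p = 0.830) without SR59230A 1 and 2, the tumors with the highest summed skeletal muscle level (614 and 35.0 TPM). SR59230A 1 and 2 also had the lowest Klf4 CPM of their group, so leaving them out fixes a larger difference in advance.

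Sox2, which marks neural stem cells, Schwann cell precursors and pluripotent cells, had 0 reads in 7 of 8 tumors and 1 read in SR59230A 1. A count of 0 allows up to 3 reads, which is 0.0681 to 0.128 CPM of these libraries before TMM scaling, for counting error only. Sox2 did not pass the filter on low counts and was not among the genes tested. In the fit with no such filter, where the single read alone made the difference, it was not called (edgeR adjusted p = 0.766). The Sox2 locus lies inside the long noncoding gene Sox2ot on the same strand, which was not quantified in these files.

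Lin28a and Lin28b were both expressed, which places both let-7 blockers in the same tumor mass. Lin28a was at 31.5, 47.5, 46.6 and 17.5 TPM in vehicle 0 to 3 and at 29.1, 48.1, 17.2 and 31.0 TPM in SR59230A 1 to 4. Vehicle 3 and SR59230A 3 were the lowest of their groups. Expressed as CPM, Lin28a was at 85.5, 83.4, 83.9 and 56.3 in the vehicle tumors and at 53.4, 78.3, 37.8 and 76.8 in the SR59230A tumors. Vehicle 0, 1 and 2 sat within 3 CPM of each other above all SR59230A tumors, but vehicle 3 lay among the low SR59230A values. The mean was 61.6 CPM ± 19.5 with SR59230A and 77.3 CPM ± 14.0 with vehicle (SD, n = 4 each), or -0.33 on the log2 scale (SE 0.24; edgeR adjusted p = 0.996; exact permutation p = 0.171). Leaving out SR59230A 3 moved it to -0.16, and leaving out vehicle 0 and 3 and SR59230A 4 moved it to -0.55. These were the ends of its range over the alternatives. With replicate numbers 1, 2 and 3 as blocks it was -0.43 (SE 0.14; edgeR unadjusted p = 0.0206, adjusted p = 0.827), though the numbers were not taken to pair the tumors.

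Lin28b varied less. It was at 15.9, 18.8, 23.1 and 14.2 TPM in vehicle 0 to 3 and at 22.2, 19.2, 15.6 and 19.8 TPM in SR59230A 1 to 4. The CPM values were 54.5, 45.5, 59.2 and 53.8 in the vehicle tumors and 56.4, 48.5, 53.8 and 69.1 in the SR59230A tumors, so only SR59230A 4 lay above the vehicle range. The log2 fold change was 0.10 (SE 0.13; edgeR adjusted p = 0.996), and it was -0.01 without SR59230A 4, 0.03 without vehicle 1, 0.15 without vehicle 2 and 0.17 without SR59230A 2. Noncoding models of Lin28b, 2 in all, took 6.65% to 15.8% of its reads per tumor, and its coding model alone was at 14.1 TPM ± 3.27 (SD, n = 8).

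Bmi1 was the steadiest of the stem genes in CPM but not in TPM, where the highest tumor was 2.12 times the lowest, against 1.63 times for Lin28b and 1.97 times for Myc. It was at 103, 143, 165 and 78.0 TPM in vehicle 0 to 3 and at 124, 132, 87.3 and 97.4 TPM in SR59230A 1 to 4. In CPM the tumors drew together, with 179, 171, 187 and 163 in the vehicle group and 185, 173, 176 and 175 in the SR59230A group. Its log2 fold change of 0.02 (SE 0.09) did not pass the edgeR test (adjusted p = 0.996), and its sign turned on the scale, since it was -0.17 with transcript length offsets and -0.11 on log2 TPM. The SD of its log2 CPM over the 8 tumors was 0.0641. Genes of like level were taken by mean log2 CPM, which is not corrected for length. Of 807 genes within 0.5 log2 units of Bmi1 only 0.496% had a smaller SD. Set against genes of like level, Lin28a stood at the other end, with an SD of 0.426, and 95.3% of them had a smaller one. The SD itself was larger for Kit (0.614, 57.9% smaller) and Prom1 (0.507, 65.9% smaller), where genes of like level varied more. Nes had an SD of 0.325 (86.4% smaller), Klf4 0.404 (69.9% smaller), Myc 0.142 (23.8% smaller) and Lin28b 0.181 (44.2% smaller).

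**Figure D2:**
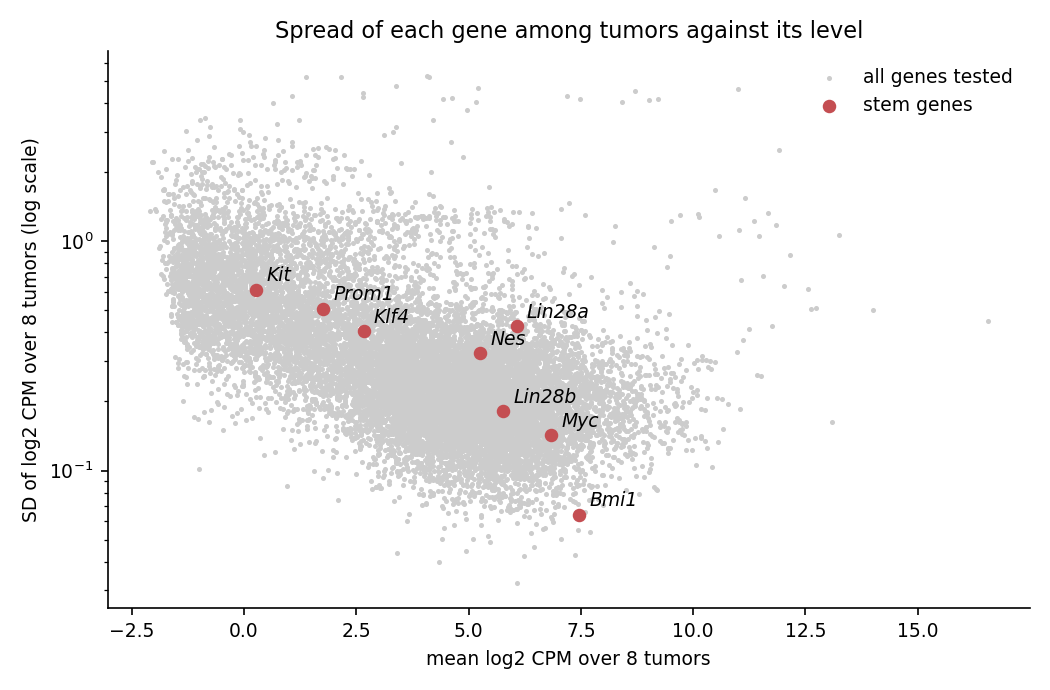
SD of log2 CPM over the 8 tumors (log axis) against mean log2 CPM for all 15207 genes tested (grey) and the 8 stem genes tested (red). Bmi1 lies at the lower edge of the cloud, with an SD of 0.0641, and Lin28a toward the upper edge at its level, with 0.426.

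Nes was at 7.83, 11.9, 12.1 and 5.69 TPM in vehicle 0 to 3 and at 11.2, 13.3, 4.68 and 6.13 TPM in SR59230A 1 to 4. In both groups the tumors split into a pair above 11 TPM and a pair under 8 TPM. The pattern was narrower in CPM, with 41.0, 42.9, 46.1 and 38.7 in the vehicle tumors and 41.3, 45.2, 23.0 and 34.6 in the SR59230A tumors. SR59230A 1 and 2 were inside the vehicle range, and SR59230A 3 and 4 were below it. SR59230A differed from vehicle by -0.23 on the log2 scale (SE 0.19; edgeR adjusted p = 0.996; exact permutation p = 0.286). It was -0.55 (edgeR unadjusted p = 0.0216, adjusted p = 0.835) without SR59230A 1 and 2, -0.35 without SR59230A 2 alone and -0.07 without SR59230A 3. SR59230A 1 and 2 were the treated tumors inside the vehicle range, so leaving them out fixes a larger difference in advance. The -0.55 and its p are therefore a description only.

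Prom1 was at 4.29, 2.16, 2.37 and 7.54 TPM in vehicle 0 to 3 and at 3.18, 2.39, 3.68 and 3.14 TPM in SR59230A 1 to 4. Vehicle 3 was the highest tumor and the other 7 lay between 2.16 and 4.29 TPM. The CPM values were 3.65, 2.60, 2.17 and 7.31 in the vehicle tumors and 3.19, 2.93, 3.16 and 3.26 in the SR59230A tumors, all 4 of which fell inside the vehicle range. The log2 fold change was -0.32 (SE 0.37; edgeR adjusted p = 0.996), and it was 0.16 without vehicle 3 and -0.52 without vehicle 2, so no direction can be given.

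Much of the Prom1 signal was given to models that are not annotated as coding. Prom1-219, a model of 994 bases annotated as a retained intron, took 76.6, 27.7, 22.9 and 150 estimated reads in vehicle 0 to 3 and 37.0, 28.7, 41.6 and 54.8 in SR59230A 1 to 4. Retained-intron models together took 20.9% to 80.2% of the Prom1 reads per tumor and 55.1% to 95.1% of its TPM. With protein-coding models alone, the Prom1 mean was 0.731 TPM ± 0.325 (SD, n = 8), with 6 of 8 tumors under 1 TPM. Of the bases of Prom1-219, 293 lie in exons of coding models and 701 do not. Both of its exon ends are printed to show where the model leaves the coding transcript (GENCODE M21, GRCm38, minus strand), with bases of coding exons in capitals.
Prom1-219 intron to exon, chr5:44037612-44037665: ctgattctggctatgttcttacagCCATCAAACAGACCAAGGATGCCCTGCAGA
Prom1-219 exon to intron, chr5:44034317-44034376: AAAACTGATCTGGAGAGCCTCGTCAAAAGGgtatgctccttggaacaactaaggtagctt

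Kit was near the limit of these libraries. Reads numbered 40, 84, 18 and 46 in vehicle 0 to 3 and 44, 28, 24 and 40 in SR59230A 1 to 4. Expressed per length, Kit was at 0.345, 0.591, 0.176 and 0.651 TPM in the vehicle tumors and at 0.897, 0.204, 0.273 and 0.306 TPM in the SR59230A tumors. SR59230A 1 was the highest, and in that tumor retained-intron models held 71.1% of the Kit TPM and 31.7% of its reads. In CPM the groups overlapped, with 1.47, 1.72, 0.543 and 1.76 against 1.20, 0.594, 1.17 and 1.37. On the log2 scale the difference was -0.35 (SE 0.42; edgeR adjusted p = 0.996; exact permutation p = 0.514). Its size rested on single tumors, since it was -0.14 without SR59230A 2, -0.61 without vehicle 2, -0.22 without vehicle 1 and -0.21 without vehicle 3, and it was -0.03 on log2 TPM with a pseudocount of 1.

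Kit has a pair of coding models, Kit-201 and Kit-204, and in each tumor the estimated coding reads were given wholly to 1 of them. Kit-204 had them in vehicle 0, 1 and 3 and SR59230A 2, and Kit-201 in vehicle 2 and SR59230A 1, 3 and 4. The models differ by 12 bases at the end of exon 9 of 21 (chr5:75639147-75639158, GRCm38, plus strand) and by 39 bases more at the 5′ end of Kit-204. These bases are the known alternative splice in the part of the receptor just outside the membrane, and they are printed in capitals because the choice between the models rests on them and on the 5′ end.
Kit-201: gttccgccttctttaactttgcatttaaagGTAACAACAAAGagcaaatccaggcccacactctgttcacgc
Kit-204: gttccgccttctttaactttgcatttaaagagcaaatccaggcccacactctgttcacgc
Salmon divides reads among models that share sequence, and how many of the 18 to 84 reads per tumor covered these bases is not known from the files. The split is given as the files hold it and was not tested.

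**Figure D3:**
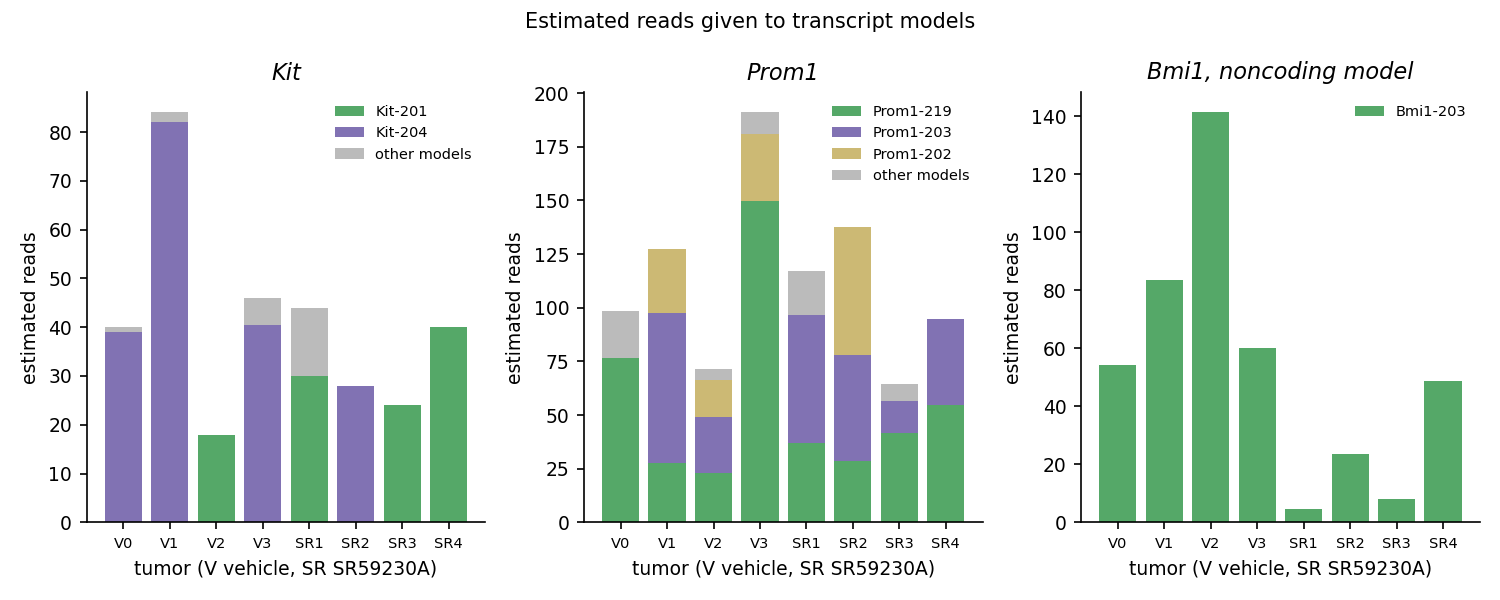
Estimated reads given to transcript models of Kit, Prom1 and Bmi1 (Bmi1-203 only) in each tumor (V, vehicle; SR, SR59230A). Kit coding reads fall wholly on Kit-201 or Kit-204 in each tumor, and Prom1-219 holds 22.9 to 150 reads. Bmi1-203 holds 54.4 to 141 reads in the vehicle tumors and 4.5 to 48.6 in the SR59230A tumors. It was singled out after its values were seen, and its reads are not scaled for depth and were not tested. The share of all transcript models that separate the groups was not counted.

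Bmi1-203, a noncoding model of 464 bases, was singled out after its values were seen. It had 54.4, 83.4, 141 and 60.2 estimated reads in vehicle 0 to 3 and 4.5, 23.7, 8.2 and 48.6 in SR59230A 1 to 4, so all vehicle tumors were above all SR59230A tumors. It shares 418 of its bases with coding models of Bmi1 and held 0.0669% to 2.28% of the gene's reads per tumor, but 0.643% to 17.1% of its TPM because it is short. This is a description of estimated reads not scaled for depth, with no test. The share of all transcript models that separate the groups was not counted. Bmi1-202 and Bmi1-201, both coding, took 53.7% and 44.9% of the Bmi1 reads over all tumors. Myc reads went mostly to Myc-205 (64.5%) and Myc-202 (30.5%), Nes reads to Nes-203 (65.9%) and Nes-201 (33.5%), and Klf4 and Lin28a reads almost wholly to 1 coding model each (99.6% for both).

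Other genes could share reads with the stem genes. Gm5946, a noncoding gene, matched Bmi1 over 2646 bases at 97.0% identity and had 13 to 49 estimated reads per tumor, against 3615 to 8346 for Bmi1. The search used 1 coding transcript per stem gene. Within it, no other match of at least 100 bases and 90% identity belonged to a gene with more than 1 read in a tumor. Retained-intron and noncoding models, which held much of the Prom1 signal, were not searched, so sharing of their reads was not tested. Gm13061 matched Lin28a over 106 bases on the opposite strand and was not quantified here.

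A gene was called where its adjusted p was under 0.05 and its log2 fold change was 0.5 or more in either direction, and none of the 8 stem genes that passed the filter was. Over all 15207 genes tested the share called by edgeR was 0.0%, so the absence of a called stem gene sets them apart from no other gene. Unadjusted p-values fell under 0.05 for 706 genes (4.64%) and for 1 stem gene, Klf4. DESeq2 called 17 of 15174 genes (0.112%), none of them a stem gene, and limma-voom called 0. With SR59230A, 4 stem genes were higher and 4 lower, with a median log2 fold change of -0.10, beside -0.0017 over all genes tested. No stem gene separated the groups without overlap, as 397 genes (2.61%) did.

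**Figure D4:**
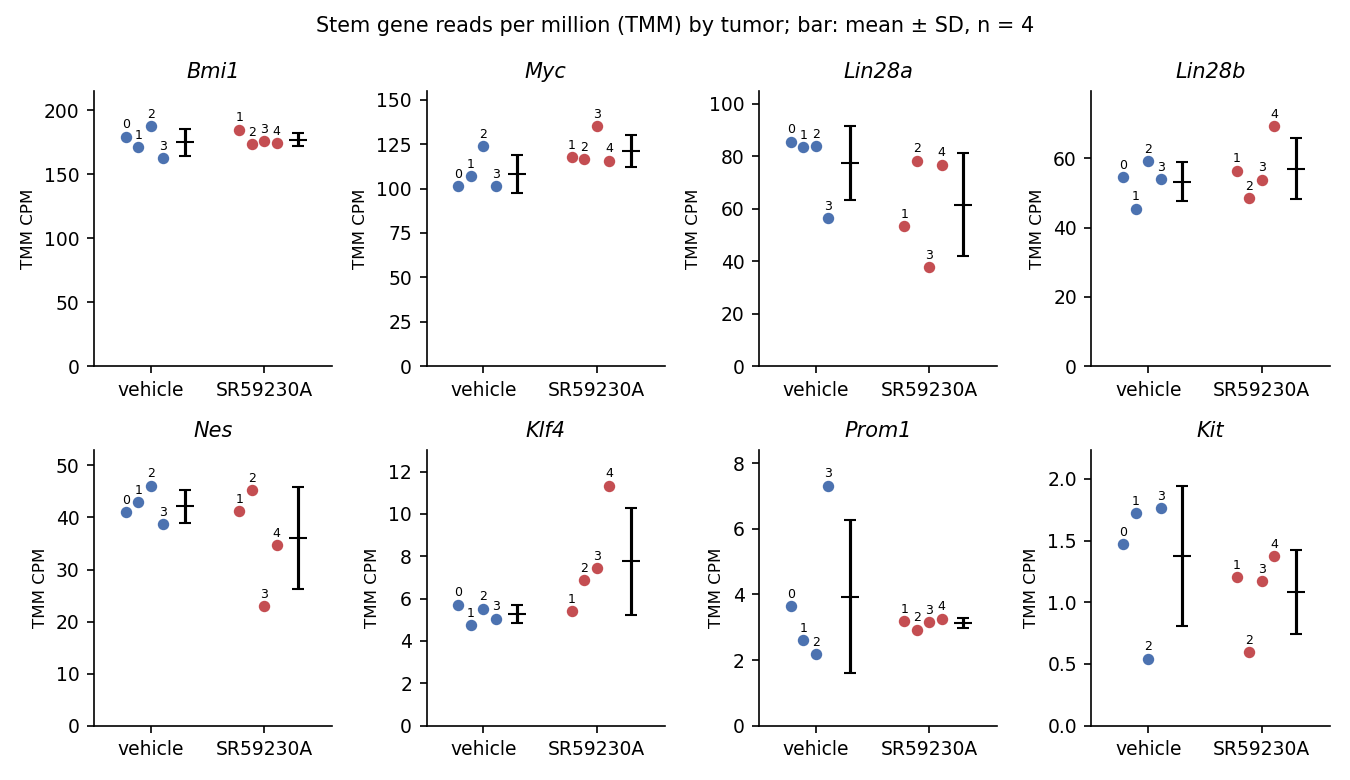
TMM-scaled CPM of the 8 stem genes tested, per tumor (points, numbered as the tumors; bars, mean ± SD, n = 4), each panel from 0. The vehicle and SR59230A points overlap in all 8 panels, and SR59230A 4 for Klf4 and vehicle 3 for Prom1 stand above the rest.

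**Figure D5:**
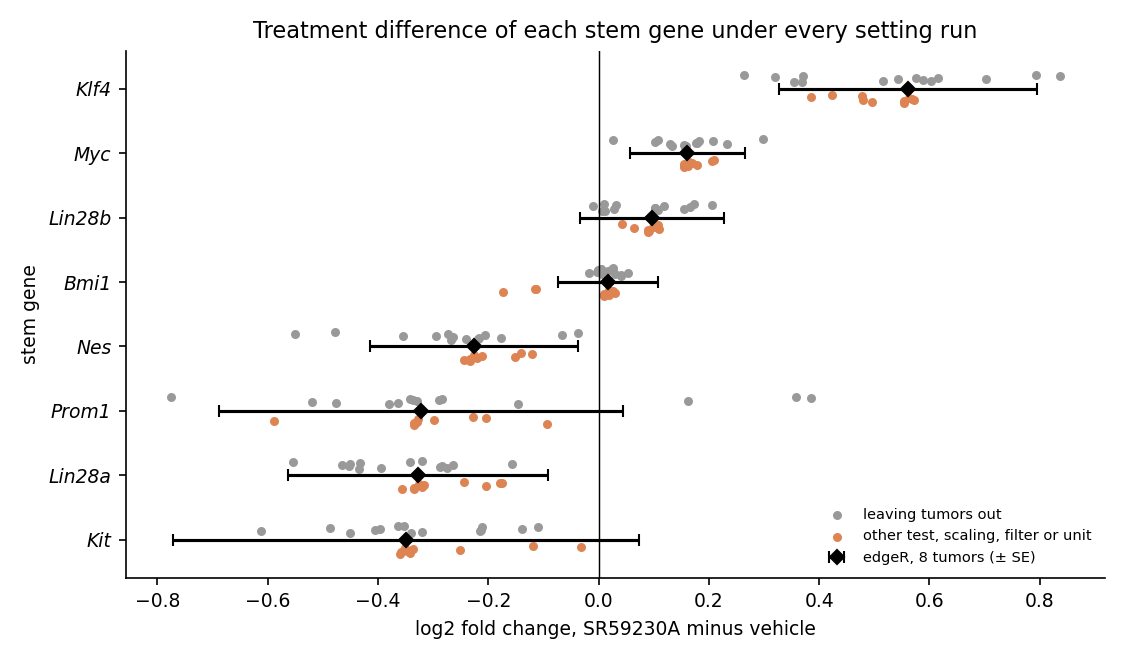
Log2 fold change of SR59230A minus vehicle for each stem gene, from edgeR over 8 tumors (diamonds, ± SE), with tumors left out (grey) and with another test, scaling, filter or unit (orange). Klf4 and Myc stay above 0 and Nes, Lin28a and Kit below 0 in all settings, while Prom1, Lin28b and Bmi1 cross 0.

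The genes that act with Lin28a and Lin28b were described next. Of 13 genes of the Lin28 and let-7 axis, 12 were tested, 5 were higher, 7 lower and none was called, with a median log2 fold change of -0.06. Tut4, the uridylyl transferase that Lin28 recruits to let-7 precursors, was at 43.9 TPM ± 4.76, and Dicer1, which cuts precursor microRNAs, was at 42.4 TPM ± 10.9 (SD, n = 8). Hmga2, a let-7 target, had 3 to 30 reads per tumor, and Igf2bp1, also a target, had 1 to 12 and was not tested.

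Trim71, a let-7 target and stem cell RNA regulator with 4 seed matches in its 3′ UTR, was at 9.06, 13.5, 12.3 and 15.1 CPM in vehicle 0 to 3 and at 21.5, 21.1, 16.3 and 18.2 CPM in SR59230A 1 to 4. All SR59230A tumors were above all vehicle tumors, with a log2 fold change of 0.63 (SE 0.17), which did not pass over all genes (edgeR unadjusted p = 0.00517, adjusted p = 0.996). Arid3a, a DNA-binding protein with 2 seed matches, went the other way without overlap, from 14.9 to 19.3 CPM with vehicle and from 10.1 to 13.3 CPM with SR59230A, a log2 fold change of -0.39 (SE 0.14; edgeR unadjusted p = 0.0216, adjusted p = 0.996). That makes 2 of 12 tested genes without overlap, beside 1.32% of all genes with all SR59230A tumors above and 1.29% with all below. Trim71 and Arid3a, named for the smallest p of the list, thus lay on opposite sides, and neither passed the test. Directions of the other listed genes with seed matches are not given here, and a part of let-7 was not tested.

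Around Myc, 10 of 11 network genes were tested, 4 higher and 6 lower, with none called and a median of -0.06. Mycn, the NB oncogene, was at 8.92 TPM ± 4.80 (SD, n = 8), far under Myc at 89.4 TPM. In CPM it was at 17.1, 19.1, 14.7 and 8.12 in vehicle 0 to 3 and at 7.56, 9.93, 6.57 and 9.75 in SR59230A 1 to 4. Vehicle 3 lay among the SR59230A tumors and the other vehicle tumors were above them, with a log2 fold change of -0.80 (SE 0.26; edgeR unadjusted p = 0.0128, adjusted p = 0.996). Mxi1, a Myc antagonist, differed by -0.35 on the log2 scale (edgeR adjusted p = 0.996), while Mga and Mlx, the most abundant of the list, were at 39.8 and 36.8 TPM with log2 fold changes of 0.01 and 0.07. Of 15 Myc targets, 4 were higher and 11 lower, none was called, and the median was -0.04. Npm1 (1533 TPM, log2 fold change -0.09) and Ldha (934 TPM, -0.0011) had the highest levels, and Ncl (-0.35) and Odc1 (-0.29) the smallest p (edgeR adjusted p = 0.996 for both).

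Around Bmi1, all 18 genes of the Polycomb repressive complex 1 list were tested, 7 higher and 11 lower, with none called and a median of -0.05. Its partners Cbx7 and Yaf2 were at 84.6 and 77.5 TPM, and Pcgf3 (-0.13) and Pcgf6 (0.15), which take the place of Bmi1 in other forms of the complex, had the smallest p. Cdkn2a, which Bmi1 is known to silence, was at 48.4 TPM ± 17.9 (SD, n = 8), so both RNAs were present in the same tumor mass.

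Around Kit, 12 of 12 ligand and signaling genes were tested, 4 higher and 8 lower, with none called and a median of -0.13. Kitl, the ligand, was at 0.950 TPM ± 0.277 (SD, n = 8), and the adaptors Shc1 and Grb2 were at 72.6 and 38.5 TPM. Sh2b3 (-0.32) and Pik3r1 (-0.31) had the smallest p (edgeR adjusted p = 0.996 for both). Mast cells, a host cell that depends on Kit, left little RNA. Of 9 mast cell genes 7 had at most 8 reads in any tumor, among them the proteases Cpa3 and Tpsb2, while Hdc (1.61 TPM) and Gata2 (43.0 TPM), the latter also a gene of sympathetic neuroblasts, were the 2 tested.

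Neural and neural crest progenitor genes other than the 9 were mostly present. Of 22, 15 were tested, 5 higher and 10 lower, with none called and a median of -0.06. Vim, an intermediate filament that pairs with nestin, was at 602 TPM ± 198 (SD, n = 8) with a log2 fold change of -0.0005. Sox4 (65.2 TPM, log2 fold change -0.29) and Sox11 (12.0 TPM, -0.46), SoxC factors of immature neurons, had the smallest p (edgeR adjusted p = 0.996 for both). Sox3, a close relative of Sox2, and Foxd3 had 0 reads in all 8 tumors.

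Pluripotency genes were mostly low, with at least 1 read for 13 of 15. Of 15, 6 were tested, 4 higher and 2 lower, with none called and a median of 0.17. Pou5f1 had 2 to 9 reads and Nanog 8 to 35 reads per tumor, and Utf1 and Nr0b1 had 0 in all 8. The highest were Klf5 (10.2 TPM, log2 fold change 0.10) and Dppa4 (3.95 TPM, -0.10), and the smallest p belonged to Klf2 (0.54) and Tfcp2l1 (-0.56), both with an edgeR adjusted p of 0.996.

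Genes of the cell types that could carry stem gene RNA were read as lists, with none called in any. Of 13 tested NB and sympathetic neuroblast genes, 2 were higher and 11 lower, with a median log2 fold change of -0.34. Elavl4 (-0.50) and Th (-0.80) had the smallest p (edgeR adjusted p = 0.996 for both), and the summed level of the list was 1626 to 2931 TPM with vehicle and 1644 to 2303 TPM with SR59230A. All 7 macrophage genes were higher, with a median of 0.33 and a summed level of 87.8 to 180 TPM with vehicle and 128 to 225 TPM with SR59230A, led by Mrc1 (66.6 TPM) and C1qa (35.7 TPM), with C1qa (0.51) and C1qb (0.47) having the smallest p. All 4 tested skeletal muscle genes of 8 were higher, with a median of 6.93, and Ttn ran from 0 to 50034 reads per tumor. The summed level of the 8 was 614 TPM in SR59230A 1 and 2.37 to 35.0 TPM in the other SR59230A tumors. It was 1.11 to 1.88 TPM with vehicle. Genes so low with vehicle could pass the filter on low counts mainly through SR59230A tumors, so the 4 higher genes cannot show a direction.

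The remaining lists gave smaller values. Of 7 endothelial genes, 1 was higher and 6 lower, with a median of -0.04 and Pecam1 at 22.3 TPM. Of 7 pericyte and smooth muscle genes, 3 were higher and 4 lower, with a median of -0.08 and Acta2 at 35.5 TPM, and Des, also a gene of skeletal muscle, had a log2 fold change of 2.66. Of 7 Schwann cell and melanocyte genes 5 were tested, 3 higher and 2 lower, with a median of 0.22. No keratinocyte gene was tested, and the most any tumor held of Lor was 13 reads. The part of these cell types in the stem gene values was not tested.

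The genes most like each stem gene over the 8 tumors were named by the Pearson correlation of log2 CPM, over 11430 or 11431 protein-coding genes with at least 100 reads on average. These are descriptions over 8 tumors that share their library, depth and cell makeup with the gene compared. Lin28a ran closest to Tagln2 (r = 0.994), Hk1 (0.987) and Myh9 (0.983), and 250 genes had an r above 0.9 with it. Nes ran close to Mtrr (0.977) and Sept11 (0.975), with 130 genes above 0.9. Both thus moved with many genes. The other stem genes had few such neighbors, from 2 for Bmi1 and Kit to 33 for Prom1.

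Bmi1 was most like Cfl2 (0.911), Mycbp (0.907) and 2310022A10Rik (0.874), and Myc most like Sar1b (0.963), Slc35b3 (0.937) and Slc35g1 (0.932). Klf4 ran close to Taf8 (0.933) and Alg11 (0.931), and Lin28b most like Rbm12 (0.928), Lin7c (0.920) and Senp2 (0.912). Prom1 was most like Fcgr2b (0.959), an Fc receptor of leukocytes, and also ran close to Tmem136 (0.953). Kit was most like Myh11 (0.945), the smooth muscle myosin heavy chain, AI429214 (0.902) and Igfbp7 (0.895). Among the stem genes themselves the highest r was 0.79 between Nes and Lin28a and the lowest was -0.71 between Prom1 and Bmi1, while Lin28a and Lin28b were at -0.02.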

How the data were processed

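Total RNA of 8 tumors (4 vehicle, 4 SR59230A) was extracted from tumor tissue and sequenced from stranded libraries after ribosomal depletion, and the authors left out RNA with an integrity number under 6. The authors quantified transcripts with Salmon, and each deposited file holds estimated counts (expected counts) and TPM per transcript. The methods name GRCm38 and the submitters' notes GRCm39. Transcript ID versions were above those of GENCODE M21 for 99.99% of matched transcripts, so the quantified set was a later one, and GRCm38 positions describe the genes and not the files. The authors also deposited a table of normalized counts from DESeq2 (a signal scaled between libraries), used only as an alternative. It lacks Nes, Prom1, Kit, Myc and Bmi1. Its column for a single vehicle tumor has no number.

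Estimated counts and TPM were summed over each gene's transcripts (115685 of 116747 matched by ID, leaving 0.353% to 0.455% of reads), and counts were rounded. Totals were 23484190 to 44045575 per tumor, and intervals and floors cover counting error only. edgeR 4.0.16 (R 4.3.3) was used with its default filter, TMM factors and the quasi-likelihood test, with p-values adjusted by Benjamini-Hochberg over 15207 genes. A call needed an adjusted p under 0.05 together with a log2 fold change of 0.5 or more in either direction. Single genes were also compared by exact two-sided permutation of mean log2 CPM (prior count 2) over 70 assignments. Alternatives used DESeq2 1.42.0, limma 3.58.1, other scaling, filters, length offsets, log2 TPM with pseudocounts of 1 and 0.1, the normalized counts, replicate blocks and subsets of tumors. The script was tested on simulated data.

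The stem genes, the other lists and the tumors left out were chosen with earlier results of these data known. Named from each other list were the 2 genes with the highest mean TPM and the 2 with the smallest p, and for each stem gene the 3 most correlated genes, of which some are not reported here. Others named were chosen after their values were seen (Cdkn2a, Kitl, Hmga2, Igf2bp1, Pou5f1, Nanog, Utf1, Nr0b1, Sox3, Foxd3, Cpa3, Tpsb2 and the transcript models). The labels do not name the animals, so p-values measure the spread between these tumors.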

Additional observations from a re-analysis of the deposited data

Results flagged for a closer look

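In 3 of 32 sets of 4 tumors (a stem gene other than Sox2 in 1 group, as TPM or CPM) 1 tumor had a gap to the next that exceeded Dixon's 95% critical share of the group's range, which chance passes in about 1 of 20 sets. Kit was at 0.897 TPM in SR59230A 1 against 0.204 to 0.306 TPM in the others of that group, while its CPM lay inside their range. Myc was at 135 CPM in SR59230A 3 against 116 to 118 CPM in the others of that group, and SR59230A 3 was also the tumor with the highest share of reads in 1 gene. Lin28a was at 56.3 CPM in vehicle 3 against 83.4 to 85.5 CPM in the other vehicle tumors, and without that tumor its log2 fold change was -0.45 (edgeR adjusted p = 0.623). Sox2 was at 0.0278 TPM, from 1 read, in SR59230A 1 and at 0 in the other SR59230A tumors, a set that exceeds the critical share by construction and says nothing about spread.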

How the results depend on the processing

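No stem gene was called in any of the 24 alternatives run. Among log2 fold changes of stem genes under alternatives, 177 kept their sign and 10 turned it. Leaving out 1 tumor gave -0.52 to 0.16 for Prom1 (0.16 without vehicle 3), -0.0100 to 0.17 for Lin28b (turned without SR59230A 4) and -0.0173 to 0.0529 for Bmi1 (turned without vehicle 3 or SR59230A 1). Prom1 turned to 0.38 without vehicle 0 and 3 and SR59230A 4, and to 0.36 in tumors 1 and 2 alone. Bmi1 turned to -0.17 with transcript length offsets, to -0.11 on log2 TPM with either pseudocount and to -0.00039 without SR59230A 1 and 2. The cause was not tested. Counting protein-coding models alone, chosen after seeing the data, moved mean TPM to 0.731 for Prom1 and 14.1 for Lin28b. Adjusted p over the alternatives was 0.585 (Lin28a) or higher.

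Over all genes, edgeR called 0 genes (706 at an unadjusted p under 0.05), DESeq2 called 17, the 4 tumors not numbered 1 or 2 alone gave 5 (Gm20503, Gm7367, Gm9531, Scd1 and Serpina3n), and leaving out 1 tumor gave 0 to 1 (Ptges3-ps, without SR59230A 4). In the replicate block fit over numbers 1, 2 and 3 there were 2 calls (Atp2a1 and Ptges3-ps), against 1 (Ptges3-ps) in the same tumors without the block term, a fit added after seeing the data. Deviations of same-numbered tumors correlated at 0.0104, 0.626 and 0.534, and since not every pair was over 0.1 the numbers were not taken to pair the tumors. Vehicle 2 and 3 correlated best with the SR59230A tumor of their own number, and vehicle 1 with SR59230A 2. These names were chosen after their values were seen. Depth limits Kit, at 18 to 84 reads per tumor, and Sox2.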
